A study of Mus musculus with 2 samples.

Results

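Replication-dependent histone genes were followed in total RNA of the mouse hippocampus. Genes were taken whose symbol begins with Hist1h, Hist2h, Hist3h or Hist4h and that have a protein-coding transcript in the annotation. Of 70 genes with such a symbol, 67 met the rule and 3 are pseudogenes, among 55536 genes in the deposited gene tables. They comprise 6 linker histone H1 genes, 18 H2A genes, 18 H2B genes, 12 H3 genes and 13 H4 genes.

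A single group was sequenced, the hippocampus ("layer of hippocampus" in the labels) of male B6CASTF1/J mice aged 14 days. These mice are hybrids of a C57BL/6J and a CAST/EiJ parent, and the animals carry no treatment or allele beyond that cross. The labels number the libraries as biological replicates 2 and 1, and each lists its own 3 males and 300 ng of RNA without saying that the animals were pooled. The same donor record is given for both, so how far the libraries are independent is not settled by the labels, and every SD and comparison between them is limited by that. Genes took 31755578 expected counts of replicate 2 and 29144892 of replicate 1. The excitatory neuron genes Camk2a, Slc17a7, Nrgn, Neurod6 and Neurod2 summed to 2960 TPM in replicate 2 and 2730 TPM in replicate 1, so genes of this cell type were present. These sums do not by themselves show which brain region was taken. TPM gives the level per length of transcript, scaled to 1000000 per library.

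Core histones H2A, H2B, H3 and H4 form the nucleosome, around which DNA is wound, and H1 binds the linker DNA between nucleosomes. The replication-dependent genes supply these proteins while DNA is copied in S phase. Their mRNAs are known for ending in a short stem-loop rather than a poly(A) tail, so a library from total RNA can hold them where poly(A) selection would lose them. The stem-loop is bound by the protein Slbp, and the U7 snRNP, which contains Lsm10 and Lsm11, guides the cut just after it. Some of these genes can also make polyadenylated mRNAs in differentiated cells. Replacement variants such as H3f3a and H3f3b are made outside S phase and accumulate in neurons, which no longer divide. In the hippocampus, granule neurons of the dentate gyrus are still being born at this age.

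The stem-loop was searched in the GENCODE M21 transcripts (mm10), because it defines this kind of mRNA and differs by class. The search took a 6-base stem beginning with GG, a 4-base loop beginning with TT, and a perfectly pairing second arm. It was found in 44 of the 67 genes (65.7%), against 86 of 21834 other genes with a protein-coding transcript (0.394%). Of the 23 genes without a match, 13 have no annotated base after the stop codon, so their annotated transcript ends before the place where a stem-loop would lie. Another 5 have 1 to 100 such bases. The other 5 have over 100 in at least 1 annotated form, as Hist2h2be with 2192, and still held no match. For Hist1h2bq (1608) and Hist1h2br (1803) those bases lie only in longer forms. Most of the TPM of these genes was given to a 381-base form too short to hold them. In all, 6 forms occurred. Each is given for 1 gene with 5 bases on either side, 5′ to 3′ as DNA letters, and capitals mark the stem and loop:
Hist1h1c: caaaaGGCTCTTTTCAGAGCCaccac
Hist1h3e: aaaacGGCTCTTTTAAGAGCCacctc
Hist2h2ac: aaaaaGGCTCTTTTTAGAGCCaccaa
Hist1h4d: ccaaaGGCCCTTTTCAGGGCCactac
Hist1h4i: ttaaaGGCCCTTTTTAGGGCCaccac
Hist1h4b: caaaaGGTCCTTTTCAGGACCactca

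The form of Hist1h1c was the most frequent, in 26 genes, of which 3 encode H1, 10 H2A, 8 H2B and 5 H3. The form of Hist1h3e occurred in 6 genes of H1, H2B and H3, and that of Hist2h2ac in that H2A gene alone. None of these 3 forms was found in an H4 gene. The H4 genes held the other three, in 7 genes (form of Hist1h4d), 2 genes (Hist1h4i) and 2 genes (Hist1h4b). Of the 44 genes, 22 have more than 100 annotated bases after the stem-loop and 22 have at most 100. Hist1h4d, on chromosome 13 (23581598 to 23582735, plus strand), is 1 of those with a long annotated end. Its stem-loop ends at base 368 of a transcript of 1138 bases.

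The genes lie in 4 groups. The Hist1 group has 54 genes on chromosome 13 between 21715763 and 23934851 (mm10), and the Hist2 group has 10 genes on chromosome 3 between 96219865 and 96270132. Hist3h2a and Hist3h2ba lie on chromosome 11 (58948920 to 58956830), and Hist4h4 lies alone on chromosome 6 (136801553 to 136804415).

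RefSeq promoters (build GRCm38.p6, 250 bases before to 50 bases after the start) could be matched for 62 of the 67 genes. They were searched on both strands, and a match describes letters, not a bound site. The letters of the TATA box, TATAAA, were somewhere in 56.5% of them and in 13.6% of 32851 promoters of all genes. Their place was not restricted, and matches lay from base -250 (Hist1h4f) to base 41 (Hist1h4a) relative to the start. Divergent genes can share a match, which then counts for both. CCAAT was in 85.5% against 37.4%. All 6 H1, 18 H2A, 16 H2B and 10 H3 promoters held CCAAT, and 3 of 12 H4 promoters did. The octamer core TTTGCAT, known from H2B promoters as a site of Oct-1, was in 22.6% of the histone promoters against 4.63% overall. It was in 7 of 18 H2A and 6 of 16 H2B promoters. The H1 box AAACACA was in 5 of 6 H1 promoters, in 14.5% of the histone promoters together and in 7.18% of all promoters. Ends of the TATA box, the H1 box and the octamer core can overlap.

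The 150 bases before the start are shown for the H1 genes with the highest levels, for a divergent H2A and H2B pair, and for the H4 gene with the highest count. Motifs are in capitals on either strand, and each line gives the gene and then its sequence, 5′ to 3′ along the gene. Hist1h1c is at chr13:23738657-23738806 (plus strand) and Hist1h1e at chr13:23622559-23622708 (minus strand). Hist1h2bg is at chr13:23571250-23571399 (plus strand), Hist1h2ae at chr13:23571221-23571370 (minus strand) and Hist1h4d at chr13:23581418-23581567 (plus strand).
Hist1h1c: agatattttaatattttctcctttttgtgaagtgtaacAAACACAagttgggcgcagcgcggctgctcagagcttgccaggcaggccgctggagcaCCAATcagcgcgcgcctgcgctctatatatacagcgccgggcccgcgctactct
Hist1h1e: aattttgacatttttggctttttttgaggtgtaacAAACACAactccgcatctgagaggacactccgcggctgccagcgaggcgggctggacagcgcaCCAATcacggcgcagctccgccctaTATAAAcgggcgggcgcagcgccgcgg
Hist1h2bg: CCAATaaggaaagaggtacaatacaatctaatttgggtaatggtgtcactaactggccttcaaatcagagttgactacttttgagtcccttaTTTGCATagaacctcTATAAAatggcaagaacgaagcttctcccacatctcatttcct
Hist1h2ae: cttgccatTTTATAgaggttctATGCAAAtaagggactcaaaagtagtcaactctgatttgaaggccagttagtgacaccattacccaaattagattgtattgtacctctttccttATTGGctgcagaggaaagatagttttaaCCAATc
Hist1h4d: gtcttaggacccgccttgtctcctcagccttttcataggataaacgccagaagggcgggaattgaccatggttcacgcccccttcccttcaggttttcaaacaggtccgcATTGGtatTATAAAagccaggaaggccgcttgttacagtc

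Both H1 promoters carry the H1 box upstream of a CCAAT box. The Hist1h2bg and Hist1h2ae stretches overlap on opposite strands, so the same octamer and TATAAA letters stand in both.

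Histone mRNA was readily measured. The 67 genes summed to 1818 TPM in replicate 2 and 1274 TPM in replicate 1, or 1546 ± 384 TPM (SD, n = 2). They held 21790 and 14551 counts in replicates 2 and 1. That was 0.0686% of the gene counts of replicate 2 (exact Clopper-Pearson 95% interval 0.0677 to 0.0695) and 0.0499% of those of replicate 1 (0.0491 to 0.0507). Of the 67 genes, 60 reached 1 TPM or more in replicate 2 and also in replicate 1, against 58.7% of all 22028 protein-coding genes. The level was spread widely, with 40 genes at a mean of 10 TPM or more and 8 at 50 or more. The 10 highest genes held 51.2% of the summed level.

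H4 had the highest summed level of the 5 classes, at 701.1 TPM in replicate 2 and 512.8 TPM in replicate 1. H2B followed with 366.5 and 275.9 TPM in replicates 2 and 1, then H2A with 364.4 and 249.9 TPM. H3 summed to 261.2 and 157.5 TPM and H1 to 124.5 and 78.18 TPM. The order was the same in both libraries, but H2B (321 ± 64.0 TPM) and H2A (307 ± 81.0 TPM) differed by less than their spread (SD, n = 2). H4 averaged 607 ± 133 TPM, H3 209 ± 73.4 TPM and H1 101.3 ± 32.8 TPM. In the second deposited quantification, in the kallisto layout, H2A came first with 676.6 and 455.2 TPM and H4 second with 557.5 and 421.5 TPM in replicates 2 and 1.

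TPM divides by the whole annotated transcript, including bases after the stem-loop. Dividing instead by the bases up to the end of the stem-loop, a scale chosen after the data were seen, raised H4 to 1168 and 871.5 and H1 to 278.4 and 177.1 in replicates 2 and 1. H4 then held 43% and 44.8% of the sum and H1 10.3% and 9.1%. All counts of a gene were kept, also any from bases after the stem-loop. Genes without a stem-loop found stayed at their TPM, so levels on this scale are not alike for all genes.

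**Figure D1:**
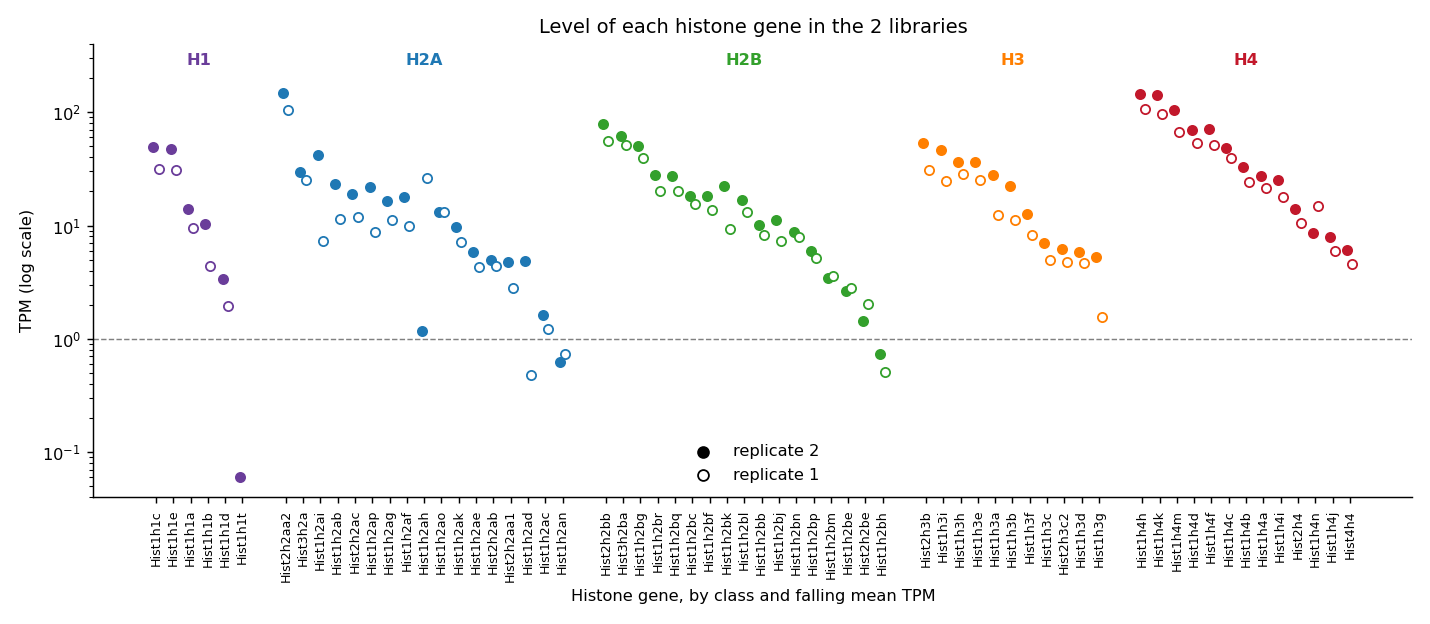
Level of the 64 histone genes with a count, in TPM on a log axis, by class and falling mean, with replicate 2 as filled and replicate 1 as open points. The dashed line marks 1 TPM. Most filled points lie above their open partner, and within each class levels span over 10-fold.

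Among H1 genes, Hist1h1c (H1f2 in RefSeq) had 49.68 TPM in replicate 2 and 31.22 TPM in replicate 1. Hist1h1e (H1f4) had 46.99 and 31.06 TPM in replicates 2 and 1. These genes stood well above Hist1h1a (14.06 and 9.57 TPM), Hist1h1b (10.33 and 4.39 TPM) and Hist1h1d (3.40 and 1.94 TPM). Hist1h1d has an annotated transcript of 7425 bases, so its 535.1 and 287.4 counts gave a low level per length. Hist1h1t, the linker histone of the testis, had 1 count in replicate 2 and 0 in replicate 1.

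Hist2h2aa2 had the highest mean level of all the genes, with 147.13 TPM in replicate 2 and 104.14 TPM in replicate 1. Its transcript shares every stretch of 100 bases with another gene, so this level depends on how reads were divided. Hist3h2a had 29.86 and 25.03 TPM, and Hist2h2ac 19.08 and 11.82 TPM. Hist1h2ab had 23.39 TPM in replicate 2 and 11.51 TPM in replicate 1. Hist1h2ai (41.79 and 7.30 TPM) and Hist1h2ap (22.05 and 8.68 TPM) differed most between the libraries within this upper group. Both have a posterior SD, the deposited measure of uncertain read assignment, above 5% of the count.

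Of H2B genes, Hist2h2bb had 79.00 TPM in replicate 2 and 55.79 TPM in replicate 1. Hist3h2ba had 62.26 and 51.58 TPM, and Hist1h2bg 50.20 and 39.10 TPM. Hist1h2bc had 18.13 and 15.55 TPM. Hist1h2br (27.63 and 20.14 TPM) and Hist1h2bq (27.54 and 20.03 TPM) were almost equal, as near-copies whose reads were shared between them.

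H3 was led by Hist2h3b with 54.02 TPM in replicate 2 and 30.83 TPM in replicate 1. Hist1h3i had 46.71 and 24.93 TPM, Hist1h3h 36.71 and 28.61 TPM, and Hist1h3e 36.34 and 25.16 TPM. Hist1h3a (27.97 and 12.50 TPM) and Hist1h3b (22.44 and 11.21 TPM) followed.

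The H4 genes Hist1h4h, Hist1h4k and Hist1h4m had the class's highest TPM. Hist1h4h had 143.78 TPM in replicate 2 and 106.15 TPM in replicate 1, Hist1h4k 141.20 and 96.09 TPM, and Hist1h4m 103.93 and 66.64 TPM. Hist1h4f had 71.67 and 51.11 TPM, Hist1h4d 70.05 and 53.80 TPM, and Hist1h4c 48.63 and 39.64 TPM. Per base up to the stem-loop, with any counts from later bases kept, Hist1h4d led all the genes with 270.6 and 207.8 in replicates 2 and 1. Hist1h4k, without a stem-loop found, was not rescaled. The lone Hist4h4 had 6.03 and 4.55 TPM, and 52.22 and 39.46 per base up to the stem-loop, since most of its annotated transcript lies after it.

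At the low end, 3 genes had no count in either library. Hist1h2aa and Hist1h2ba encode the H2A and H2B of testis, and the third, Hist2h3c1, shares every 100-base stretch of its transcripts with another gene. With 0 counts, as many as 3 are still allowed, or 0.0945 counts per 1000000 in replicate 2 and 0.103 in replicate 1, for counting error only. For Hist2h3c1 that limit does not hold, since its reads cannot be told from those of its copies.

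All 5 class sums were higher in replicate 2 than in replicate 1. Counts were scaled by TMM (trimmed mean of M-values), and the log2 ratio of replicate 2 to replicate 1 was taken with its 95% counting interval. Over all 67 genes it was 0.44 (0.41 to 0.47), a ratio of 1.36. H3 had 0.64 (0.55 to 0.73), H1 0.62 (0.55 to 0.69), H2A 0.42 (0.35 to 0.48), H4 0.37 (0.32 to 0.42) and H2B 0.29 (0.21 to 0.36). The intervals of H3 and H1 overlap, and both lie above those of H2A, H4 and H2B. Intervals cover counting error only.

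Gene by gene, the libraries were compared by an exact two-sided binomial test. P-values were adjusted by Benjamini-Hochberg over the 18332 genes of the whole table with a mean count of at least 10, and the threshold was 0.05. It compares 2 libraries of 1 group, not conditions. Replicate 2 was called higher for 35 of the 62 histone genes tested, against 12.3% of all genes. Replicate 1 was called higher for 2, against 9.92%, and 25 genes were not called. A log2 ratio above 0 was found for 56 of the 62, against 50.5% of all genes. Their median log2 ratio was 0.40, against 0.00 over all genes. All 5 tested H1 genes, 9 of 16 H2A, 4 of 17 H2B, 7 of 11 H3 and 10 of 13 H4 genes were called higher in replicate 2. The 5 genes not tested were Hist1h1t, Hist1h2an, Hist1h2aa, Hist1h2ba and Hist2h3c1.

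Hist1h1b had the largest ratio among genes with well assigned reads. It had 143 counts in replicate 2 and 57 in replicate 1, a log2 ratio of 1.18 (0.74 to 1.66; adjusted p = 1.1e-06 by the exact binomial test). Hist1h1c had 1559.9 and 920.6 counts, a log2 ratio of 0.62 (adjusted p = 7.6e-24 by the same exact test). Hist1h1e had 1848.9 and 1147.6 counts, with 0.55 (adjusted p = 1.3e-22, exact). H1 genes thus moved together, at log2 ratios of 0.51 to 1.18.

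For H3, Hist2h3b had 451.6 counts in replicate 2 and 242.0 in replicate 1 (log2 ratio 0.76, adjusted p = 5.2e-10, exact binomial test). Hist1h3a had 261.5 and 109.7 counts (1.10, adjusted p = 9.9e-11, exact). For H4, ratios were smaller and even. Hist1h4d had 1564.1 counts in replicate 2 and 1128 in replicate 1, a log2 ratio of 0.33 (0.22 to 0.44; adjusted p = 8e-08, exact). The 12 H4 genes other than Hist1h4n had log2 ratios of 0.25 to 0.59. In H2B, Hist2h2be went the other way at 78 and 103 counts, with a log2 ratio of -0.54 (adjusted p = 0.063, exact), and was not called.

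**Figure D2:**
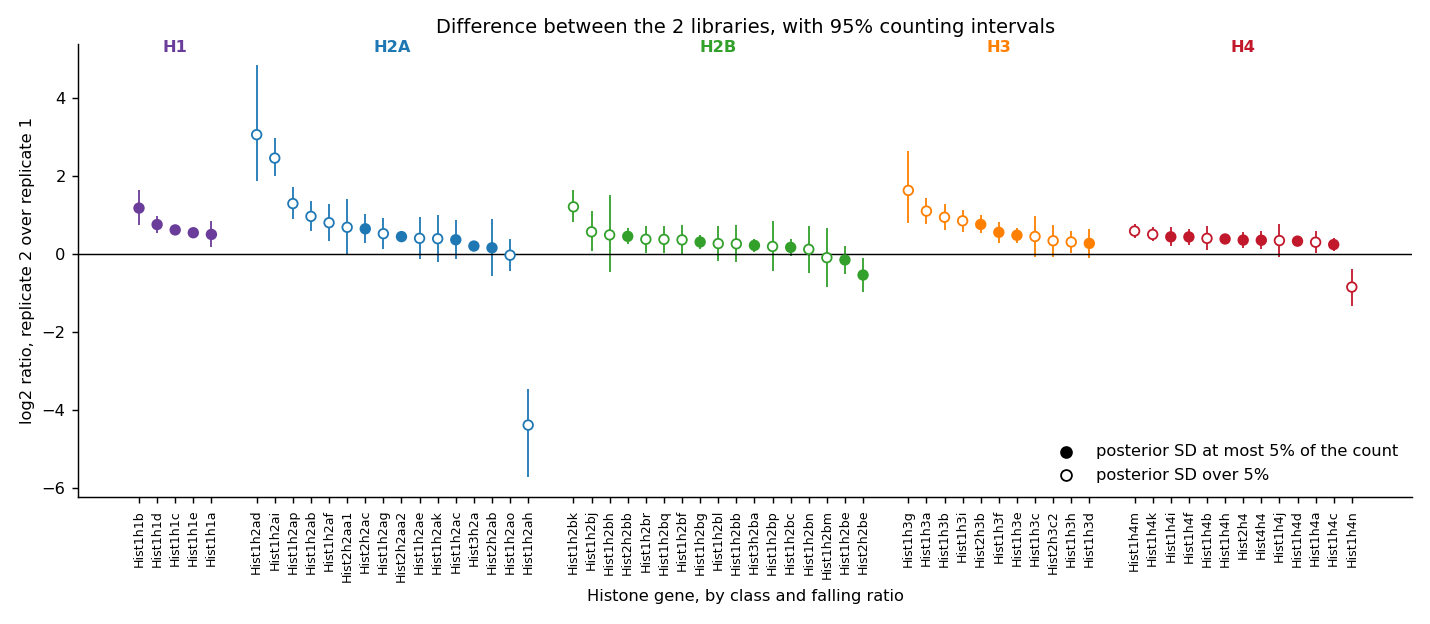
log2 ratio of replicate 2 to replicate 1 for the 62 tested histone genes, by class and falling ratio, with 95% counting intervals as bars. Open points have a posterior SD above 5%, the measure of uncertain read assignment. Filled points cluster between 0 and 1.2 apart from Hist1h2be and Hist2h2be, and the extremes Hist1h2ad, Hist1h2ai and Hist1h2ah are open.

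The excess of calls in replicate 2 held in each quantification and with ERCC spike-in scaling. From kallisto-layout counts, 29 of 54 tested histone genes were called higher in replicate 2, against 15.2% of all genes, and 0 in replicate 1, against 9.59%. The calls shared by both quantifications were 19 genes, all higher in replicate 2. With ERCC scaling 42 of 62 were called higher in replicate 2, against 29.8% of all genes, and 2 in replicate 1, against 5.2%. That scaling set the median log2 ratio of all genes at 0.11 and the share of calls higher in replicate 2 at 85.1%, against 55.4% with TMM. With a normal test that adds the deposited assignment variance, 31 genes were called higher in replicate 2 and 1 in replicate 1, against 11.7% and 9.58% of all genes.

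Neither test knows the spread between animals. With edgeR's exact test at an assumed coefficient of variation of 0.1, 8 histone genes were called higher in replicate 2 and 1 in replicate 1, against 0.289% and 0.655% of all genes. Of those 8, Hist1h1b was the sole gene with well assigned reads.

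Gene lists chosen by hand, with earlier results of these data known, describe what else moved between the libraries. Of 20 genes of proliferating cells, 7 were called higher in replicate 2 and 0 in replicate 1 by the exact binomial test. Over all genes, for this and the lists after it, the shares were 12.3% and 9.92%. With kallisto-layout counts 9 were called higher in replicate 2 and 1, Tyms, in replicate 1, against 15.2% and 9.59% of all genes. The 20 genes had a median log2 ratio of 0.37, with sums of 86.0 TPM in replicate 2 and 69.6 TPM in replicate 1. None was at 0. The called genes were Mki67, Top2a, Ccna2, Mcm2, Mcm3, Mcm6 and Cdt1, which mark cycling cells or belong to the licensing of replication, with Mcm2, Mcm3 and Mcm6 as helicase subunits and Cdt1 as a loader. Mcm2 had 4.46 TPM in replicate 2 and 2.26 TPM in replicate 1, and Top2a 5.17 and 3.41 TPM. All 5 genes of immature neurons, Dcx, Sox4, Sox11, Neurod1 and Igfbpl1, were called higher in replicate 2 (median 0.42, sums 141 and 98.5 TPM in replicates 2 and 1).

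Genes of myelinating oligodendrocytes went the other way, with 8 of 8 called higher in replicate 1 (median -1.12, sums 943 TPM in replicate 2 and 1770 TPM in replicate 1). All 5 red blood cell genes (median -0.51, sums 561 and 732 TPM) and 3 of 4 choroid plexus genes (median -1.09, sums 47.0 and 89.0 TPM) were also called higher in replicate 1. Of 5 stem cell and radial glia genes, 2 were called higher in replicate 2 (median 0.22, sums 86.0 and 66.0 TPM). The part of these cell types in the histone difference was not tested. In bulk tissue fewer cells of a type and less RNA per cell cannot be told apart.

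The machinery that makes and handles histone mRNA was nearly level between the libraries. Of 16 genes for its transcription, 3′ processing and decay, 0 were called higher in replicate 2 by the exact binomial test and 1, Lsm11, in replicate 1 (median -0.02). Kallisto-layout counts gave 2 calls higher in replicate 2, Cpsf2 and Upf1, and 1 in replicate 1, again Lsm11. The shares of all genes there were 15.2% and 9.59%. Slbp had 10.05 TPM in replicate 2 and 10.36 TPM in replicate 1. Npat, the coactivator of histone genes, had 6.40 and 6.85 TPM. Lsm11 had 47.17 TPM in replicate 2 and 51.99 TPM in replicate 1, with a log2 ratio of -0.14. Of 10 histone chaperones 1 was called, Nasp, which binds H3 and H4 (22.34 and 18.63 TPM, log2 ratio 0.33). Kallisto-layout counts gave 3 chaperones higher in replicate 2, Nasp, Chaf1a and Atrx, and 0 in replicate 1.

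Replacement variants were compared with the replication-dependent genes of their class within each library, on the TPM scale. H3f3a and H3f3b, which encode the same replacement H3 protein, summed to 413.4 TPM in replicate 2 and 324 TPM in replicate 1. The 12 replication-dependent H3 genes summed to 261.2 and 157.5 TPM, a mean log2 ratio to the variants of -0.85 ± 0.27 (SD, n = 2). The variants were thus 1.8-fold higher, more than the spread between libraries. H2A was the reverse, since its 18 genes exceeded H2afz and H2afv (93.95 and 86.96 TPM) by a mean log2 ratio of 1.74 ± 0.31, or 3.34-fold. That result rests on which variants are summed. With H2afx, H2afy, H2afy2 and H2afj added, a choice made after the data were seen, the variants summed to 225.6 TPM in replicate 2 and 201.8 TPM in replicate 1. The mean log2 ratio was then 0.50 ± 0.27, under 2 SD, and was not called. For H1, the sum of 124.5 and 78.18 TPM stood beside 87.78 and 68.89 TPM of H1f0 and H1fx. Their mean log2 ratio was 0.34 ± 0.23 and was not called. These ratios depend on the length scale. Per base up to the stem-loop, H1 summed to 278.4 in replicate 2 and 177.1 in replicate 1. H2A summed to 516.6 and 373.3 on that scale, and H3 to 324.9 and 201.8. No ratio to variants was taken there, so the calls for all 3 classes are those of TPM and may differ on that scale. The H1 sums there stood further above the TPM of H1f0 and H1fx. With expected counts not divided by length, the mean log2 ratios kept their signs, at 0.36 for H1, 0.96 for H2A and -1.93 for H3. A call needed the same sign in both libraries and a mean over 0.5 and over 2 SD. No sign-flip test was run, since the smallest exact two-sided p that 2 libraries allow is 0.5.

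Of 11 genes listed by hand as replication-independent variants, 6 were called higher in replicate 2 and 0 in replicate 1 (median log2 ratio 0.23). How far each of them is independent of replication was not tested. H3f3b had 206.62 TPM in replicate 2 and 148.79 TPM in replicate 1, with a log2 ratio of 0.37. H2afx, the variant phosphorylated at DNA breaks, had 29.29 and 21.19 TPM and a log2 ratio of 0.42. H2afz, at 74.80 and 70.11 TPM, was not called.

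Many of the histone genes are near-copies of each other, and reads could not always be given to a single gene. The deposited posterior standard deviation (SD) measures this. In replicate 2, replicate 1 or both it exceeded 5% of the count for 35 of the 62 tested histone genes, against 6.26% of all genes. Its median, taking the larger value of the 2 libraries, was 7.18%. Fragments of 100 bases are implied by the effective lengths in the first transcript table, so shared stretches of that length were counted. The median gene shared 34.2% of them with another gene, 25 genes shared over 50%, and 7 shared none. For the 22 tested genes that shared up to 25%, the median posterior SD was 1.93% of the count, and for the 13 that shared over 75% it was 52.3%. Across the 62 genes Spearman's rho was 0.757, a description over genes that share libraries and sequence.

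**Figure D3:**
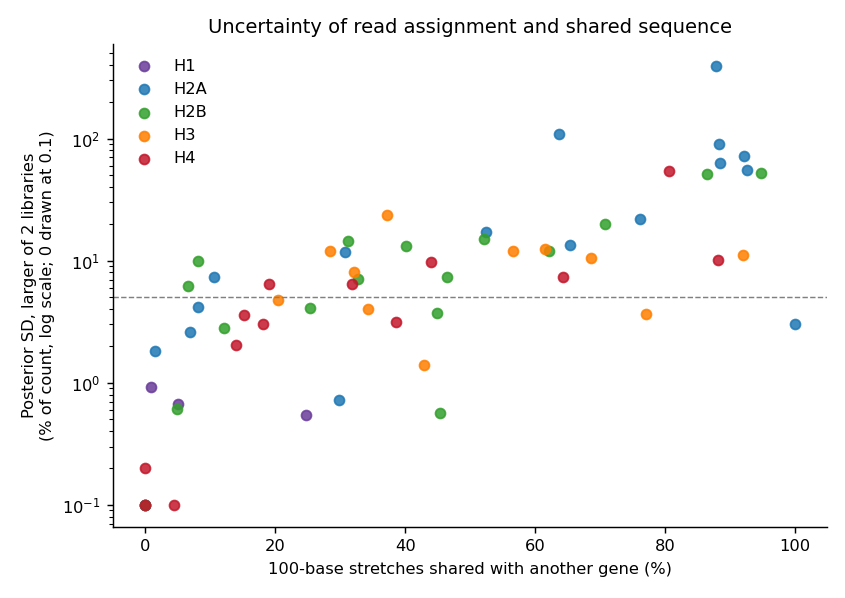
Posterior SD as a percent of the count (larger of the 2 libraries, log axis, 0 drawn at 0.1) against the percent of 100-base stretches shared with another gene, for the 62 tested histone genes coloured by class. The dashed line marks 5%. Points rise from left to right, and the genes above 50% are mostly those that share over 75%.

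Of the 27 tested genes with a posterior SD of at most 5%, 21 were called higher in replicate 2, 0 in replicate 1 by the exact binomial test, and 6 were not called. Of all 17185 genes with such a posterior SD, 12.2% were called higher in replicate 2 and 9.96% in replicate 1. The 3 most extreme ratios were all in the other set. Hist1h2ah had 7.76 counts in replicate 2 and 161.9 in replicate 1, a log2 ratio of -4.39, with posterior SDs of 393% and 19.9% of those counts. Hist1h2ai had 264 and 43.29 counts, a log2 ratio of 2.47. Hist1h2ad had 49.57 and 4.62 counts, a log2 ratio of 3.07. In the kallisto-layout table Hist1h2ah had 19.57 counts in replicate 2 and 7.65 in replicate 1, so its direction turned.

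Summing near-copies removed these extremes. Histone genes of the set were joined where over 75% of the 100-base stretches of 1 were in the other, a grouping made after the values were seen. Genes outside the set were left out, also where they met this bound, as Gm20634 and the pseudogene Hist1h2aj did. Gm20634 holds every such stretch of Hist2h2aa2 and Hist2h3c1. It had 285.4 expected counts in replicate 2 and 269.4 in replicate 1, so the Hist2 sums may not gather all shared reads. Hist1h2ad, Hist1h2ah, Hist1h2ai and Hist1h2an together had 325.3 counts in replicate 2 and 214.2 in replicate 1, a log2 ratio of 0.46 (0.21 to 0.72). Hist1h4n alone was called higher in replicate 1, at 61.29 and 99.99 counts. With its near-copy Hist1h4m, the sum was 738.1 and 507.5 counts, a log2 ratio of 0.40 (0.24 to 0.57). Hist1h2ao and Hist1h2ap together gave 0.64 (0.36 to 0.93), and Hist1h2bq and Hist1h2br gave 0.38 (0.14 to 0.62). The remaining groups were Hist2h2aa1 with Hist2h2aa2 at 0.46 (0.34 to 0.58), and Hist2h3b with Hist2h3c1 and Hist2h3c2 at 0.66 (0.46 to 0.86). All 6 groups were thus higher in replicate 2 in the gene table. With kallisto-layout counts 5 had a ratio above 0, and Hist1h2bq with Hist1h2br had 18.17 counts in replicate 2 and 24.17 in replicate 1, a log2 ratio of -0.51 (-1.47 to 0.44). The interval of Hist1h4m with Hist1h4n also spanned 0 there (-0.12 to 0.63).

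The second quantification gave the histone genes fewer counts. It held 13002 counts for them in replicate 2 and 8640 in replicate 1, or 59.7% and 59.4% of the expected counts of the gene tables. By class it held 87.4% and 88.8% for H1, 77.2% and 78.2% for H2A, 74.9% and 75.2% for H3, 64.2% and 66.9% for H2B, and 24% and 24.2% for H4 in replicates 2 and 1. Counts were over 2-fold lower than the expected count in both libraries for 26 of the 62 genes compared, against 2.73% of all genes. They were over 2-fold higher for 4, against 12.2%.

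Hist1h4d showed the widest gap among genes that share no 100-base stretch. It had 1564.1 expected counts in replicate 2 and 1128 in replicate 1, but 17 and 6 counts in the kallisto-layout table. Hist1h4k had 646.4 and 413 expected counts against 2 and 3. Hist1h4f had 449.7 and 301.2 expected counts, likewise against 2 and 3. Of the 5 classes, H4 carried this difference most. The annotated transcript of Hist1h4d has 1138 bases, and its stem-loop ends at base 368.

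The gap went with the length up to the stem-loop, or to the end of the gene's longest transcript where none was found. The 16 genes of up to 400 bases kept 8.38% of their expected counts in replicate 2 and 8.85% in replicate 1, and 14 of them were over 2-fold lower. The 26 genes over 400 and up to 500 bases kept 43.3% and 42.7%, and the 20 longer genes 117% and 118%. Of those 20, 2 were over 2-fold lower, Hist1h2bq and Hist1h2br. Their longest forms placed them there, although a 381-base form held most of their TPM. Among other genes, the 252 with a longest transcript of up to 400 bases had a median log2 ratio of -6.27, and the 19058 above 1000 bases one of 0.12. The effective lengths imply a mean fragment of 347.1 bases in the kallisto-layout table, beside 100 in the first transcript table. The part of that setting in the gap was not tested.

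**Figure D4:**
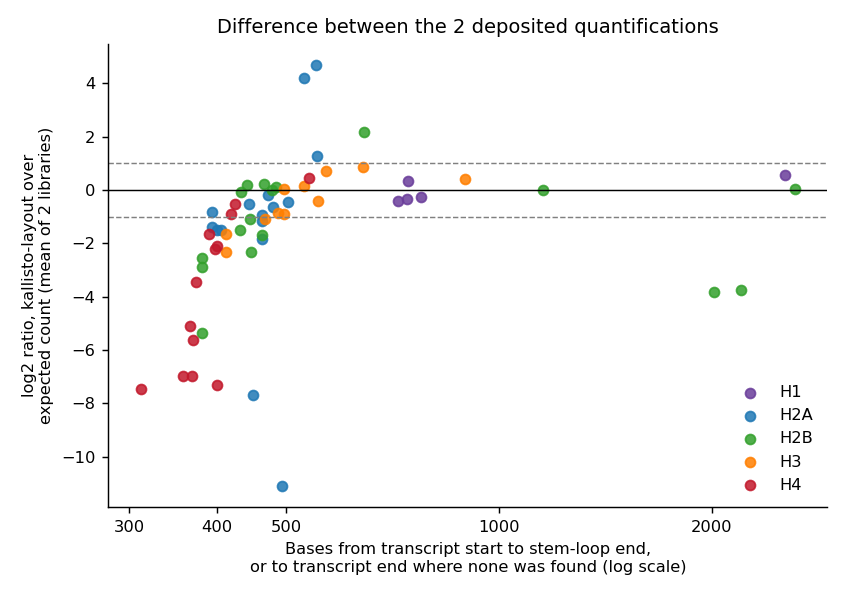
Mean log2 ratio of the kallisto-layout count to the expected count, for the 62 tested histone genes by class. The log axis gives bases from the transcript start to the end of the stem-loop, or of the longest transcript where none was found. Dashed lines mark a 2-fold difference. Most genes of up to 400 bases, largely H4, lie below the lower line, and the lowest point is Hist2h2aa2.

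A different pattern was a swap between copies. Hist2h2aa2 had 1356.5 and 901.5 expected counts in replicates 2 and 1 and 0 and 0 counts in the kallisto-layout table. Its near-copy Hist2h2aa1 had 49.60 and 27.72 expected counts but 1194.5 and 777.2 in the kallisto layout. Their sums were close, at 1406 and 929.2 expected counts and 1195 and 777.2 counts in the kallisto layout. Of the other genes that were over 2-fold higher there, Hist1h2ad had 381.2 and 228.1 counts, Hist1h2ae 196.5 and 116.8, and Hist1h2be 674 and 534.8. Hist1h2be spans 23583670 to 23621124 on chromosome 13 and overlaps Hist1h1e on the same strand.

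More than 1 transcript is annotated for 5 of the genes, all in H2B but Hist2h3c1. For Hist1h2bq and Hist1h2br the 381-base transcript held 99.2% ± 0.552 and 98.8% ± 0.700 of the gene's TPM (SD, n = 2), and forms over 1000 bases held the remainder. In the kallisto layout the libraries were opposite, at fewer than 20 counts per gene and library. Forms over 1000 bases held 8.1% of Hist1h2bq in replicate 2 and 100% in replicate 1, and 13.6% and 100% of Hist1h2br. Every annotated form of Hist1h2be is over 1000 bases, and the leading one was Hist1h2be-202 in replicate 2 (84.1%) and Hist1h2be-201 in replicate 1 (81.5%). In the kallisto layout Hist1h2be-201 led in both, with 92.5% and 91.5%. Hist1h2bp was given wholly to its 469-base transcript in both libraries of the first transcript table. In the kallisto layout that form held 100% in replicate 2 and 82.1% in replicate 1.

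The 3 pseudogenes were quantified beside the coding genes. Hist1h2al had 161.4 expected counts in replicate 2 and 103.2 in replicate 1, and 0 in both in the kallisto layout. Hist3h2bb-ps had 73.96 and 54.94 expected counts, and Hist1h2aj 6.52 and 0.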

How the data were processed

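The authors' gene tables hold expected counts, as deposited, and a posterior standard deviation of each, per the file headers. TPM was deposited by the authors in the same tables. Transcript values came from a table in the RSEM layout, which gives each form's percent of its gene's TPM as deposited, and from one in the kallisto layout with estimated counts and TPM, per the file headers. The build is mm10 per the labels, and settings of the tools were not given in the sources. Kallisto-layout values were summed per gene.

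Expected counts were rounded to whole numbers, scaled by TMM (edgeR 4.0.16, R 4.3.3) and tested between libraries where the mean count was at least 10, with a prior count of 0.5 for log2 ratios. P-values measure the difference of these libraries beyond counting error. Reads are not independent molecules, so intervals cover counting error only. Entries that carry only a number and name no gene (9.4e-06% of counts in replicate 2, 2.67e-05% in replicate 1) were left out, as were spike-ins.

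The histone genes and the lists were chosen with earlier results of these data known. Any histone gene could be named, with values in both libraries for the up to 6 highest of a class and those with the largest differences. From the lists the called genes and up to 4 highest genes could be named. Alternatives were DESeq2 1.42.0 size factors, ERCC scaling, plain totals, other tables, filters and thresholds, and each library alone. Values were computed with Python 3.11.15, scipy 1.17.1 and pandas 2.3.3. The other lists covered oligodendrocyte precursors (1 of 4 genes called higher in replicate 2), astrocytes (2 of 5 in each direction), microglia (3 of 5 higher in replicate 2), endothelium (1 of 4 higher in replicate 2, 2 in replicate 1) and excitatory neurons (3 of 5 higher in replicate 2).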

Additional observations from a re-analysis of the deposited data

How the results depend on the processing

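No paired analysis was possible because the series has 1 group, so no 2 groups share replicate numbers. Counts were taken as moved beyond 1.5 times, levels and ratios to variants beyond 1 SD between the libraries, and log2 ratios of sums beyond their counting interval. Of 117 alternative values, 91 stayed, 26 moved and none reversed. Part of this tally was fixed in advance. Either of 2 libraries always lies within 1 SD of their mean. Levels, ratios to variants and transcript shares from 1 library therefore could not move. The rho for stretches of 50 bases was counted as stayed without a rule. Only log2 ratios of sums and called ratios to variants could be labelled reversed. The count of 37 histone genes called between libraries fell to 9 with edgeR at a coefficient of variation of 0.1 and was 29 to 44 under the other settings. With ERCC scaling the log2 ratios of the sums were 0.55 for all histone genes, 0.72 for H1, 0.52 for H2A, 0.40 for H2B, 0.75 for H3 and 0.48 for H4. With kallisto-layout counts that of all histone genes was 0.50. Rescaling TPM to 1000000 over protein-coding genes gave mean sums of 3249 for all, 212.7 for H1, 645.3 for H2A, 675.6 for H2B, 439.2 for H3 and 1276 for H4. Kallisto-layout TPM gave 138.5 for H1, 565.9 for H2A and 336.8 for H3. Division by the bases up to the stem-loop, added after the data were seen, gave 2330 for all, 227.8 for H1, 445 for H2A and 1020 for H4. Expected counts not divided by length moved the log2 ratio of replication-dependent genes to variants to 0.96 for H2A and -1.93 for H3. Summing all 6 listed H2A variants, also added after the data were seen, gave 0.50. Forms over 1000 bases held 54% ± 65.0 of Hist1h2bq (8.1% in replicate 2, 100% in replicate 1) and 56.8% ± 61.1 of Hist1h2br (13.6% and 100%) in the kallisto layout, from few counts. Stretches of 50 bases in place of 100 gave a rho of 0.764. ERCC scaling and the rescaled TPM apply the same factor to every gene of a library. Less the median of all genes, the log2 ratio of all histone genes was 0.441 with TMM and 0.441 with ERCC scaling. The causes of the other moves were not tested. Each library alone gave 60 to 61 detected genes, 34 uncertain genes in either library and 33 to 36 genes that differed between tables.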
